A study of Mus musculus with 12 samples.

Results

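The proteasome is the large protease that degrades ubiquitin-tagged proteins, and the 43 genes described here encode its subunits and the factors that cap or assemble it. They were taken from the gene table by name, as every mouse gene symbol made of Psma, Psmb, Psmc, Psmd or Psme followed by a number, which gave 43 of 55903 genes. Of the 43, 41 had a mean of at least 1 TPM (a transcript level per length, scaled to the same total in each library) over the 12 libraries and entered the tests among 10883 genes. Psma8, an alpha subunit best known from testis, stayed between 0.05 and 1.32 TPM, and Psmb11, the catalytic subunit of the thymus proteasome, was listed at 0 in every library.

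RNA-seq of mouse liver was made in 3 groups of 4 libraries, in a series that by its title concerns the killing of senescent cells by light. The KSL0608-Se treated group received the compound with that code, and its sample descriptions also name doxo, so doxo is named for both non-young groups. The group called aged/doxo here is titled and tagged as aged, while its description gives doxo only, and the labels do not settle whether it stands for age, for a drug or for both. The young control group is tagged young and its description names no agent. The sources used here do not give strain, sex, age in numbers, dose or timing. Which animal gave which library is not said either, so a p-value reflects how these libraries vary, which may be partly technical. Below, the livers of a group stand for its libraries, and n = 4 counts libraries, which may not be separate animals. The values are from bulk tissue, in which fewer cells of a type and less RNA per cell cannot be told apart. The labelled tissue was checked on hepatocyte markers: 10 of 10 passed the filter, with albumin (Alb) between 16214 and 42495 TPM.

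The core particle, or 20S proteasome, is a barrel of alpha rings enclosing beta rings, and 3 of the beta subunits, Psmb5, Psmb6 and Psmb7, carry the proteolytic sites. Under interferon gamma these are replaced in new particles by Psmb8, Psmb9 and Psmb10, which gives the immunoproteasome and alters the peptides offered on MHC class I. The 19S regulator binds the ends of the barrel: its ATPase ring (Psmc genes) unfolds substrates, and its other subunits (Psmd genes) bind and remove ubiquitin. PA28 (Psme1, Psme2 and Psme3) and PA200 (Psme4) are alternative caps. When proteasome activity falls short, the transcription factor NRF1 (Nfe2l1) raises subunit genes together through antioxidant response elements.

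Short stretches of promoter are shown because they hold the letters through which these known regulators act, antioxidant response elements for NRF1 and interferon-related sites for the immunoproteasome. RefSeq windows on GRCm38.p6, from 250 bases before to 50 after each start site, were matched to 36 of the 43 genes. The antioxidant response element core, TGACNNNGC on either strand, was found in windows of 6 of these 36 genes (16.7%), against 14.0% of the 27025 genes with a window. Those 6 were Psmb5, Psmb6, Psmc6, Psmd9, Psmd12 and Psme4. The gamma-activated site TTCNNNGAA was found in 2 genes, Psmb8 and Psmd2 (5.56% against 9.55% of all genes), and the interferon-stimulated response element core (GAAA, any 2 bases, GAAA) in 4, Psmb3, Psmd4, Psmd9 and Psme1 (11.1% against 3.99%). CCAAT was held by 14 genes (38.9% against 41.1%), and GGTGGCAAA by none (against 0.263%). Where 2 of the motifs fell in 1 window, as in Psmd9, the matches did not overlap. The following 4 stretches run 5′ to 3′ on the strand of the gene with the matching letters in capitals; the match in Psme1 reads on the opposite strand.
Psmb5: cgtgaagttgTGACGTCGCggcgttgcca
Psmb6: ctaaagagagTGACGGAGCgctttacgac
Psmb8: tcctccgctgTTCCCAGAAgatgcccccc
Psme1: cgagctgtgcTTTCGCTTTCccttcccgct
The Psmb5 stretch is at chr14:54618024-54618052 on the minus strand, and its match begins 47 bases before the start site. The Psmb6 stretch is at chr11:70525338-70525366 on the plus strand, with its match 9 bases before the start. The Psmb8 stretch is at chr17:34198088-34198116 on the plus strand, with its match 97 bases before the start, and the Psme1 stretch is at chr14:55578493-55578522 on the plus strand, 10 bases after the start. The start sites are those of RefSeq. In GENCODE M21 the spans of Psmb8 and Psme1 begin further upstream, at 34197721 and 55578123, so both stretches lie inside those spans. A match is only a description of these letters.

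Before the groups are set side by side, 2 libraries have to be named that stood apart in these genes. Summed over the 43 genes, aged/doxo library 2 held 1749.5 TPM and young control library 1 held 2190.0 TPM, while the other 10 libraries held between 2808 and 3187 TPM. In aged/doxo library 2, the median subunit gene differed from the mean of the other 3 libraries of its group by -1.09 on the log2(TPM + 1) scale, against -0.65 over all genes tested. In young control library 1 the median differences were -0.44 for the subunit genes and -0.53 for all genes tested. Aged/doxo library 2 also had 27.6% of its TPM on mitochondrial transcripts and 88.0 TPM of the nuclear RNA Neat1, against 8.10% to 12.4% and 10.4 to 34.9 TPM in the other 11 libraries. Whether RNA quality or another property of these libraries lowered the subunit transcripts was not tested. The plot of medians by library shows both libraries below all others.

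**Figure D1:**
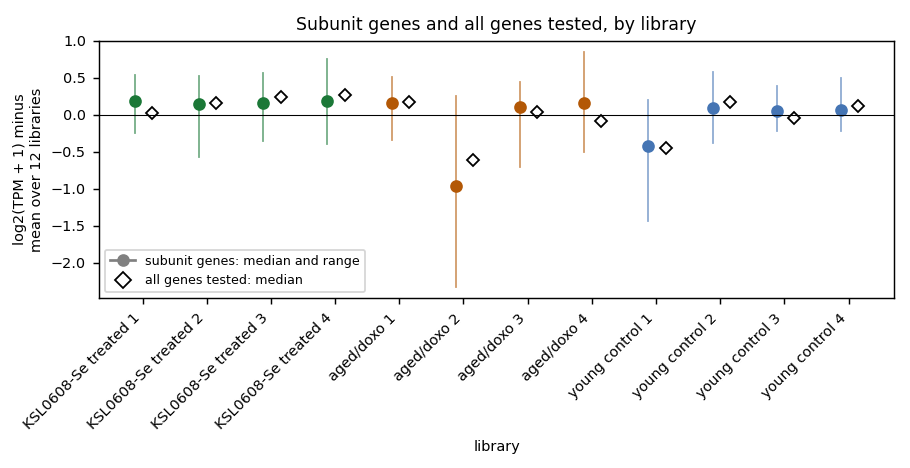
Difference of each library from the mean of the 12 libraries, in log2(TPM + 1), for the 41 tested subunit genes (filled point: median; line: lowest to highest gene; colours mark the 3 groups) and for all 10883 genes tested (open diamond: median). Aged/doxo library 2 (subunit median -0.96, all genes -0.61) and young control library 1 (-0.43 and -0.46) lie below the other 10 libraries.

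The subunit genes as a set were well expressed. The median over the 41 genes was 57.0 TPM, against 6.65 TPM over all genes tested, and the highest and lowest genes, Psmb6 (217 TPM) and Psmd10 (6.03 TPM), differed 36-fold. Constitutive beta subunits were the most abundant class, with a median of 132 TPM (7 genes), followed by alpha subunits at 92.3 TPM (7 genes) and the ATPase ring at 67.5 TPM (6 genes). The other 19S base and lid subunits had a median of 43.6 TPM (11 genes), the immunoproteasome subunits 29.3 TPM (3 genes) and the chaperones that help assemble the 19S base 13.7 TPM (3 genes). The activators spanned 9.94-fold, between Psme4 at 11.7 TPM and Psme2 at 116 TPM. Over the 41 genes, level went with annotated transcript length in the file (Spearman rho -0.72 of mean TPM with length, a description over genes that share libraries). Pseudogenes and a paralogue with similar names (Psma5-ps, Psmb5-ps, Psmb6-ps, Psmb6-ps2, Psmb7-ps2 and Psme2b) reached at most 0.35 TPM in any library.

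**Figure D2:**
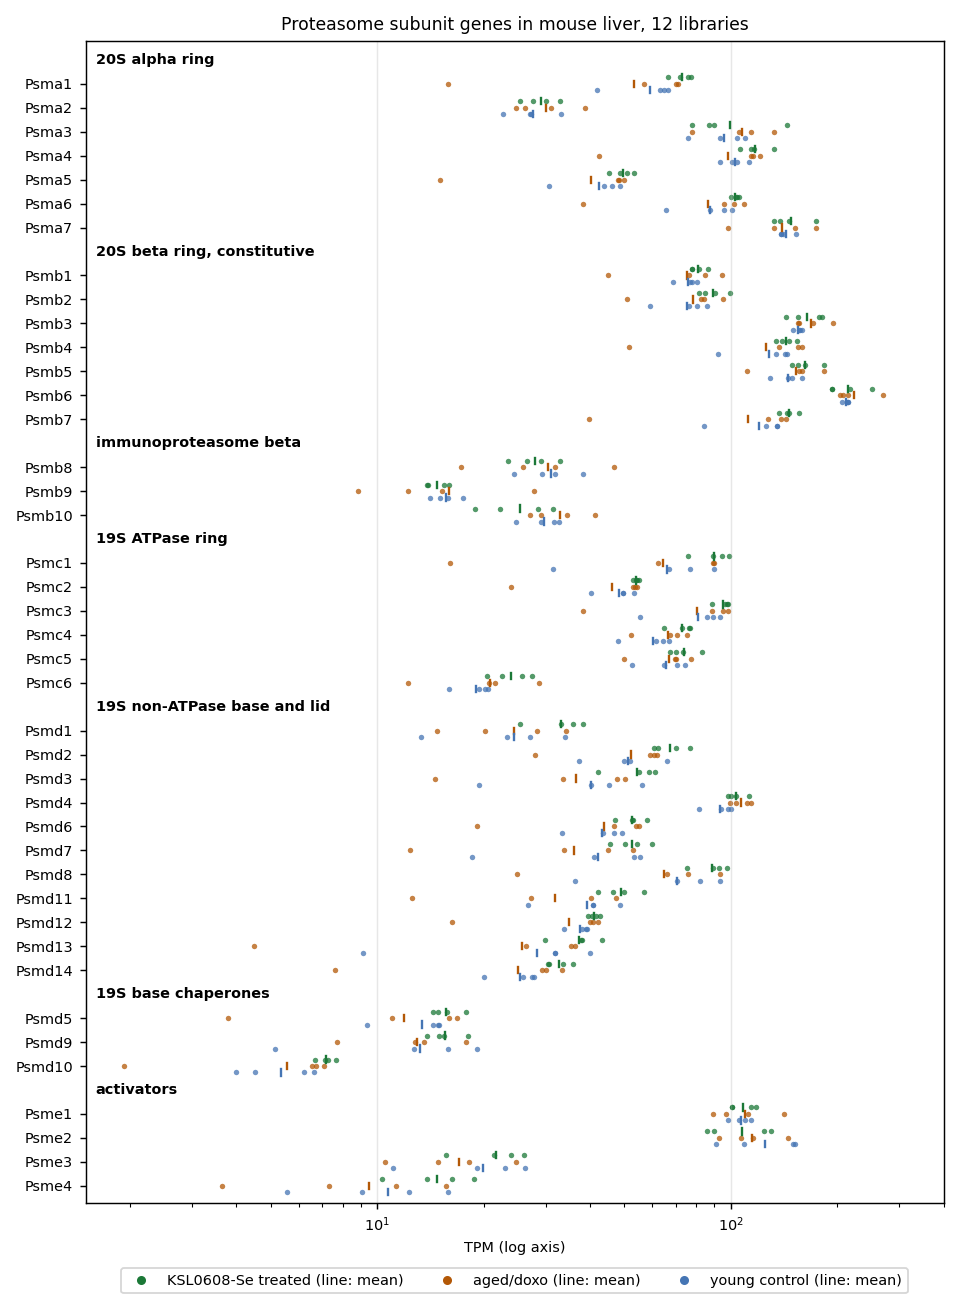
TPM (log axis) of the 41 tested subunit genes, grouped by subunit class. Each point is 1 library and each short line the mean of 4, with KSL0608-Se treated above aged/doxo above young control in each row; the 3 groups overlap for most genes, and the isolated low points are mostly aged/doxo library 2 and young control library 1.

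Outside the 2 libraries that stood apart, levels varied less. Those 2 libraries were named for low values of these same genes, so leaving them out narrows the spread of these genes by selection. Over the remaining 10 libraries of all 3 groups the coefficient of variation (SD over mean) had a median of 11.2% over the 41 genes, against 16.5% over the 5287 genes whose mean TPM lay within the range of the subunit genes and 20.8% over all genes tested. Over all 12 libraries the medians were 23.2% for the subunit genes and 30.2% for all genes tested. The value for genes within the range of the subunit genes was computed over the 10 libraries only. The steadiest was the ATPase gene Psmc2, at 3.52%, followed by the lid gene Psmd12, which encodes the scaffold subunit Rpn5, at 3.86%. Psmc2 stood at 55.0, 54.2, 53.1 and 53.9 TPM in KSL0608-Se treated livers, at 52.8, 23.9, 54.5 and 53.6 TPM in aged/doxo livers and at 40.2, 53.2, 49.7 and 49.7 TPM in young control livers. Only aged/doxo library 2 and young control library 1 fell below the narrow band of the others. The most variable genes over the 10 libraries were Psmb9 (29.7%), Psme4 (27.8%) and Psma3 (24.0%), and the immunoproteasome genes Psmb8 and Psmb10 came next at 21.4% and 21.3%.

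The 3 comparisons set aged/doxo against young control liver, treated against aged/doxo liver, and treated against young control liver. They share groups, so their values are not independent of each other. In aged/doxo against young control liver, limma called 0 of the 41 subunit genes after Benjamini-Hochberg adjustment over all genes, where 0.00919% of all genes were called. Without adjustment, 0 of 41 had a limma p under 0.05, where 1.98% of all genes did. In KSL0608-Se treated against aged/doxo liver, limma again called 0 of 41 (0.00919% of all genes), and 1 gene, Psmd11, had an unadjusted p under 0.05 (2.44% of subunit genes, 4.77% of all genes). In treated against young control liver, limma called 0 of 41 (0.0276% of all genes), and 0 had an unadjusted p under 0.05 (3.4% of all genes). The 3 groups share 1 estimate of spread in this fit. With only the 2 groups fitted, 2 of 41 had an unadjusted limma p under 0.05 (617 of 10883 genes). Without aged/doxo library 2, 3 of 41 did (689 of 10883 genes), and none was called in either fit. A p that misses the threshold does not show that levels were equal: the 95% interval for treated minus aged/doxo reached 2.07 on the log2 scale for Psmd13.

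The median log2 fold change over the 41 genes was -0.08 for aged/doxo minus young control, 0.32 for treated minus aged/doxo and 0.24 for treated minus young control, on the log2(TPM + 1) scale. Over all genes tested it was -0.08, 0.30 and 0.23, so the subunit genes moved with the bulk of genes on this scale. Log2 fold changes were above 0 in 14 of 41 genes (34.1%, against 35.2% of all genes), in 33 (80.5%, against 81.0%) and in 37 (90.2%, against 84.0%) for the 3 comparisons in that order. Median-of-ratios scaling, which centres the libraries on the typical gene, brought the subunit medians to 0.012, -0.043 and -0.035, and the medians of all genes to 0.00 in each comparison. Leaving out aged/doxo library 2 turned the aged/doxo minus young control median to 0.18 and lowered the treated minus aged/doxo median to 0.02. Leaving out young control library 1 gave -0.22 for aged/doxo minus young control and lowered the treated minus young control median to 0.10.

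**Figure D3:**
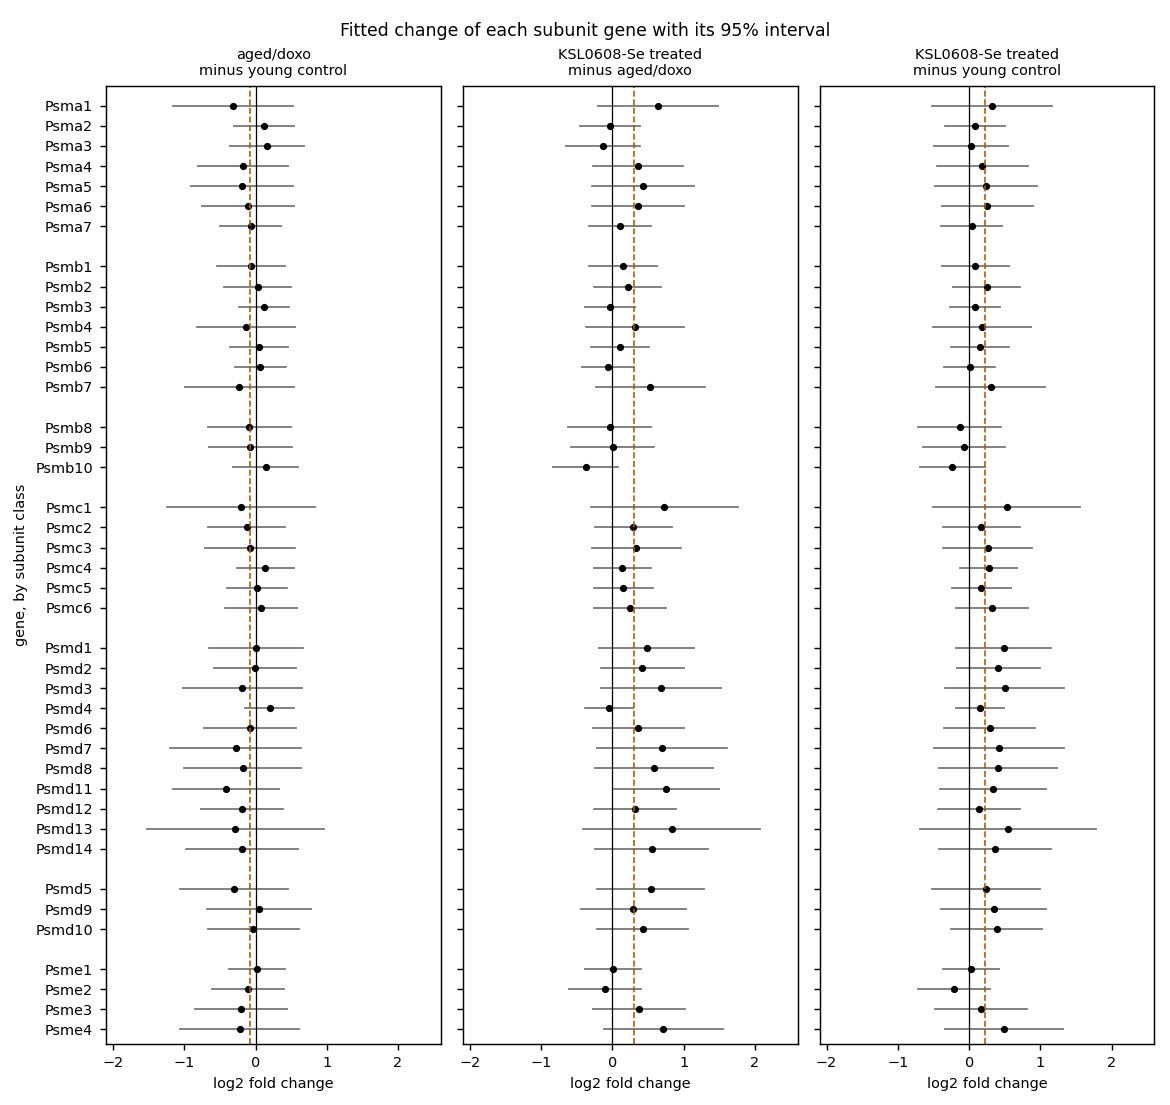
Log2 fold change (point) of each of the 41 tested subunit genes with its 95% interval (line) from limma on log2(TPM + 1), in the 3 comparisons of 4 libraries a group. The dashed line is the median of all 10883 genes tested (-0.08, 0.30 and 0.23); nearly all intervals include 0, Psmd11 in treated minus aged/doxo being the exception (0.00 to 1.49).

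The alpha ring, the outer gate of the barrel, summed to 620 ± 64.7 TPM in KSL0608-Se treated livers, 556 ± 150.2 TPM in aged/doxo livers and 559 ± 41.0 TPM in young control livers (SD, n = 4 each). Over the 7 tested alpha genes the median log2 fold change was 0.36 for treated minus aged/doxo, -0.11 for aged/doxo minus young control and 0.19 for treated minus young control. For treated minus aged/doxo it was 0.0018 without the 2 libraries that stood apart and -0.012 with median-of-ratios scaling, and for treated minus young control 0.13 and -0.096. Leaving out aged/doxo library 2 alone turned the median for aged/doxo minus young control to 0.18. Psma1 stood at 72.0, 66.7, 75.8 and 77.3 TPM in treated livers, at 70.9, 15.9, 70.2 and 56.7 TPM in aged/doxo livers and at 41.8, 64.8, 63.1 and 66.6 TPM in young control livers. All treated livers were above all young control livers, the closest pair being 66.68 and 66.63 TPM, and the treated livers overlapped the aged/doxo livers. The limma log2 fold change of Psma1 was 0.32 ± 0.39 (SE) for treated minus young control (adjusted p = 0.741). Psma3 behaved otherwise among the alpha genes. It was as high in aged/doxo library 2 (106 TPM) as in the other 3 of its group (108 ± 28.1 TPM), and it reached 144 TPM in treated library 1, against 77.7 to 89.7 TPM in the other treated livers. The remaining alpha genes, Psma2, Psma4, Psma5, Psma6 and Psma7, ran between 28.9 TPM (Psma2) and 143 TPM (Psma7) on average, and their log2 fold changes for treated minus aged/doxo lay between -0.04 (Psma2) and 0.43 (Psma5). Psma4, Psma5 and Psma6 were low in aged/doxo library 2, at 42.4, 15.1 and 38.1 TPM. Psma2 was lowest there too, at 24.7 TPM, but close to the 26.2 to 38.6 TPM of the other 3.

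The constitutive beta subunits, including the 3 with proteolytic sites, summed to 1001 ± 75.2 TPM in treated livers, 937 ± 187 TPM in aged/doxo livers and 913 ± 72.7 TPM in young control livers (SD, n = 4 each). Psmb5, which carries the chymotrypsin-like site and is encoded on chromosome 14 (54614119 to 54618022, GRCm38), stood at 183, 162, 149 and 155 TPM in treated livers. It stood at 159, 111, 156 and 184 TPM in aged/doxo livers and at 129, 145, 159 and 149 TPM in young control livers. The groups overlapped, with the lowest value in aged/doxo library 2 and the highest in aged/doxo library 4. Its log2 fold changes were 0.11 ± 0.19 for treated minus aged/doxo and 0.05 ± 0.19 for aged/doxo minus young control (SE), with limma adjusted p = 0.708 and 1.0.

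Psmb6, the caspase-like subunit and the most abundant transcript of the set, stood at 252, 218, 194 and 194 TPM in treated livers, at 204, 208, 214 and 269 TPM in aged/doxo livers and at 215, 207, 215 and 213 TPM in young control livers. The young control livers lay between 207 and 215 TPM, and the 2 libraries that stood apart elsewhere were not low here. Psmb7, the trypsin-like subunit, stood at 156, 137, 146 and 145 TPM in treated livers, at 143, 39.8, 139 and 127 TPM in aged/doxo livers and at 83.9, 135, 126 and 135 TPM in young control livers. All treated livers exceeded all young control livers, and aged/doxo library 2 was the lowest of all. The log2 fold change of Psmb7 for treated minus young control was 0.30 ± 0.35 (SE, limma adjusted p = 0.735). Exons of Psmb7 overlap those of Nek6 on the opposite strand, which reached 28.9 TPM, and the sources used here do not say whether counting used strand. The structural beta genes Psmb1, Psmb2, Psmb3 and Psmb4 had log2 fold changes between -0.04 (Psmb3) and 0.31 (Psmb4) for treated minus aged/doxo, and between -0.13 (Psmb4) and 0.12 (Psmb3) for aged/doxo minus young control. Psmb4 was low in aged/doxo library 2 (51.4 TPM, against 150.5 ± 11.98 TPM in the other 3), and Psmb3, at 171 TPM, was not.

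Of the 7 classes, the immunoproteasome genes alone had a lower mean summed level in treated livers than in both other groups, with the groups overlapping. Summed TPM of Psmb8, Psmb9 and Psmb10 (with Psmb11 at 0) was 68.1 ± 8.14 TPM in treated livers, 79.4 ± 24.7 TPM in aged/doxo livers and 76.1 ± 5.88 TPM in young control livers (SD, n = 4 each). Aged/doxo library 4 held 116 TPM, and the rest of its group, at 63.7 to 74.2 TPM, lay within the treated range of 57.9 to 75.2 TPM. For treated minus aged/doxo, the log2 fold change over the alternatives ran from -0.40 to 0.19 for Psmb8 and from -0.35 to 0.30 for Psmb9. All 3 had a negative log2 fold change for treated minus young control, between -0.24 for Psmb10 and -0.07 for Psmb9, in a comparison where 84.0% of all genes were above 0. The activator gene Psme2 was also negative there, at -0.21. None of the 3 immunoproteasome genes passed the limma test, with adjusted p between 0.734 and 0.901. Their class median for treated minus young control was -0.13, and it was -0.19 without the 2 libraries that stood apart, -0.40 with median-of-ratios scaling, -0.35 with quantile normalization and -0.11 with the length dependence of each library as a covariate. With median-of-ratios scaling a negative median was not particular to this class. It was -0.18 for the activators, -0.13 for constitutive beta, -0.096 for alpha and -0.013 for ATPase genes. The other base and lid genes (0.12) and the base chaperones (0.09) were above 0.

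Psmb8 replaces Psmb5 in the immunoproteasome and is encoded in the MHC region on chromosome 17 (34197721 to 34201454, GRCm38). It stood at 26.6, 23.5, 29.1 and 32.9 TPM in treated livers, at 32.0, 17.2, 25.8 and 46.7 TPM in aged/doxo livers and at 24.3, 38.3, 29.3 and 31.9 TPM in young control livers. The groups overlapped, and the aged/doxo group held both the lowest and the highest library. After median-of-ratios scaling or quantile normalization Psmb8 was lower in all treated than in all young control livers, the only subunit gene of which this was so (2.44% of subunit genes, against 1.55% and 1.57% of all genes). Its log2 fold change for treated minus young control was -0.13 ± 0.27 on the deposited scale and -0.40 with median-of-ratios scaling.

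Psmb9, the neighbour of Psmb8 on chromosome 17 (34181987 to 34187764), replaces Psmb6. It stood at 16.0, 15.5, 13.9 and 13.8 TPM in treated livers, at 15.2, 12.3, 8.86 and 27.8 TPM in aged/doxo livers and at 14.1, 15.9, 17.5 and 15.04 TPM in young control livers. Treated and young control livers covered almost the same narrow range, and aged/doxo livers were spread on either side of it. Exons of Psmb9 overlap those of Tap1, which is read from the opposite strand and reached 13.9 TPM, so the level of Psmb9 may hold Tap1 reads if strand was not used.

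Psmb10 replaces Psmb7 and lies on chromosome 8 (105935735 to 105938444, GRCm38). It stood at 31.5, 18.9, 22.3 and 28.5 TPM in treated livers, at 26.99, 34.4, 29.0 and 41.3 TPM in aged/doxo livers and at 32.8, 29.2, 31.7 and 24.6 TPM in young control livers. Treated livers 2 and 3 were below all other libraries, and treated livers 1 and 4 overlapped both other groups. Psmb10 had the lowest log2 fold change of the 41 genes for treated minus aged/doxo, at -0.37 ± 0.21 (SE, 95% interval -0.83 to 0.08, limma adjusted p = 0.427). Over 21 alternative settings and left-out libraries, some of which cannot change a log2 fold change, this value stayed negative, between -0.74 and -0.19.

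Set against the subunits they replace, the immunoproteasome genes made up 11.6% ± 1.32 of the TPM of the 6 catalytic subunit genes in treated livers, 13.9% ± 2.44 in aged/doxo livers and 13.8% ± 0.897 in young control livers (SD, n = 4 each). The single libraries were at 11.1%, 10.1%, 11.8% and 13.2% in treated livers, at 12.8%, 15.1%, 11.1% and 16.6% in aged/doxo livers and at 14.3%, 14.6%, 13.6% and 12.6% in young control livers. Only treated library 4 reached into the young control range. The ratio of Psmb8 to Psmb5 was 0.174 ± 0.0342 in treated, 0.194 ± 0.0444 in aged/doxo and 0.213 ± 0.0369 in young control livers. The ratio of Psmb9 to Psmb6 was 0.0694 ± 0.00392 in treated, 0.0695 ± 0.0263 in aged/doxo and 0.0736 ± 0.00703 in young control livers. These shares and ratios are given as a description, with no test. For Psmb10 to Psmb7 the ratio in aged/doxo library 2 was 0.866, against 0.188 to 0.324 in the other 3 of its group, and Psmb7, not Psmb10, was the subunit that was low there.

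**Figure D4:**
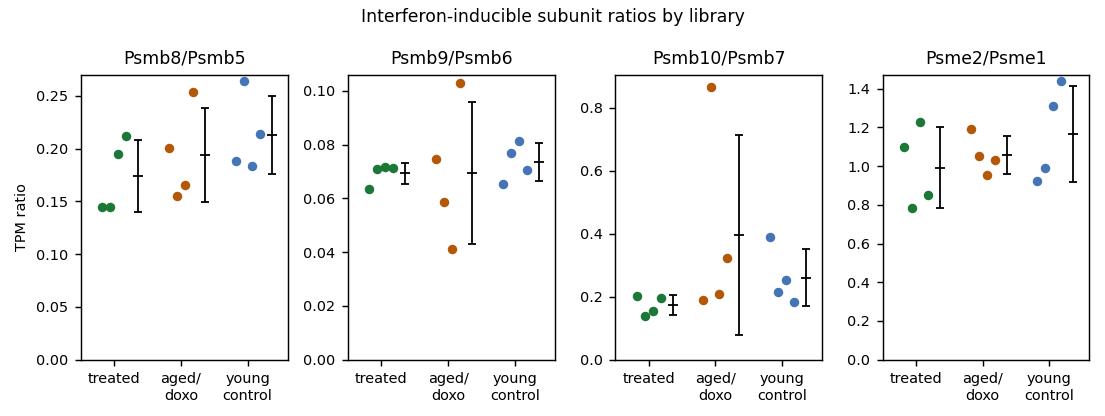
TPM ratio of each interferon-inducible beta subunit gene to the constitutive gene it replaces, and of Psme2 to Psme1, by library (points, in library order) with the mean and SD of 4 libraries (black). The groups overlap in all 4 panels; the isolated high point for Psmb10/Psmb7 is aged/doxo library 2 (0.866).

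Aged/doxo library 4 was the highest of all 12 libraries for 13 of the 41 subunit genes, treated library 4 for 11 and treated library 1 for 9. The same count was not made over all genes tested, so these counts cannot be called unusual. Besides Psmb8, Psmb9, Psmb10 and Psme1, the 13 genes of aged/doxo library 4 were Psma2, Psma6 and Psma7 of the alpha ring, the constitutive beta genes Psmb1, Psmb3, Psmb4, Psmb5 and Psmb6, and Psmd4. Relative to the mean of the other 3 aged/doxo libraries, Psmb9 was 2.29-fold, Psmb8 1.87-fold, Psme1 1.42-fold and Psmb10 1.37-fold, and the constitutive Psmb5 and Psmb6 were 1.3-fold and 1.29-fold. The MHC class I genes B2m, H2-K1 and H2-D1, chosen after their values were seen, were also highest there, at 4144, 2147 and 482 TPM. Markers of immune and of other cells moved with it: the summed TPM in aged/doxo library 4 was 526 for 12 Kupffer cell and macrophage markers (82.4 to 206 in the other 3), 130 for 8 dendritic cell markers (31.0 to 55.1), 12.6 for 12 T and NK cell markers (3.59 to 5.35) and 63.6 for 8 B and plasma cell markers (18.5 to 35.4). In the same library the sum was 123 TPM for stellate cell and fibroblast markers (52.7 to 70.1 in the other 3), 89.3 TPM for endothelial markers (36.5 to 53.3) and 52.8 TPM for cholangiocyte markers (31.5 to 36.2). Hepatocyte markers were highest of the group there too, at 79490 TPM (43490 to 73590 in the other 3). Erythroid markers did not follow, at 2122 TPM, within the 1839 to 2568 TPM of the other 3. The filter was passed by 12 of the 12 Kupffer cell and macrophage markers, 2 of the 8 dendritic, 2 of the 12 T and NK and 3 of the 8 B and plasma cell markers. None of these immune cell markers was listed at 0 in every library. In treated livers the 4 immune cell sums ranged from 209 to 315, from 48.4 to 72.8, from 3.14 to 6.05 and from 23.1 to 43.2 TPM in that order, and in young control livers from 199.5 to 362, from 51.4 to 113, from 3.54 to 8.5 and from 30.0 to 44.5 TPM. The part of any of these cells in the high subunit values was not tested.

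The ATPase ring of the 19S regulator summed to 409 ± 13.6 TPM in treated livers, 344 ± 102 TPM in aged/doxo livers and 340 ± 62.9 TPM in young control livers (SD, n = 4 each). All 6 ATPase genes had positive log2 fold changes for treated minus aged/doxo and for treated minus young control, where 81.0% and 84.0% of all genes did, and none passed. With median-of-ratios scaling the class medians for these comparisons were -0.094 and -0.013. Over all 12 libraries Psmc1 varied most among them (35.2%), and over the 10 libraries without those that stood apart Psmc6 did (17.4%, against 14.6% for Psmc1). Psmc1 stood at 76.0, 94.4, 89.4 and 98.8 TPM in treated livers, at 89.5, 16.1, 89.2 and 62.2 TPM in aged/doxo livers and at 31.4, 89.5, 66.8 and 76.8 TPM in young control livers. Without aged/doxo library 2 and young control library 1, the class median for treated minus aged/doxo was 0.02, against 0.27 with them. Psmc4 and Psmc5 were the least lowered of the ring in aged/doxo library 2, at 0.733 and 0.691 of the mean of the other 3 livers. For treated minus young control, the log2 fold changes of the 6 genes ran from 0.17 (Psmc2 and Psmc5) over 0.26 (Psmc3), 0.28 (Psmc4) and 0.32 (Psmc6) to 0.53 (Psmc1).

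The other 19S subunits of the base and lid gave the largest class median of the 7 classes in both treated comparisons on the deposited scale, but not with the length dependence of each library as a covariate. Summed, they stood at 612 ± 35.6 TPM in treated livers, 482 ± 152 TPM in aged/doxo livers and 496 ± 117 TPM in young control livers (SD, n = 4 each). Their median log2 fold change was 0.55 for treated minus aged/doxo and 0.40 for treated minus young control, and without the 2 libraries that stood apart it was 0.18 and 0.17. With median-of-ratios scaling the medians were 0.19 and 0.12, and with the length covariate 0.03 and 0.06, against 0.13 for the alpha ring and 0.08 for the ATPase ring, the largest of those comparisons in that order. The limma test called none of the 11 genes under any of these settings. Psmd1 and Psmd2, the large scaffold subunits of the base, averaged 33.2 ± 5.63 and 67.4 ± 7.51 TPM in treated livers, 24.4 ± 8.60 and 52.4 ± 16.4 TPM in aged/doxo livers, and 24.4 ± 8.60 and 51.3 ± 11.8 TPM in young control livers. The lid genes Psmd3, Psmd6, Psmd7 and Psmd8 had log2 fold changes for treated minus aged/doxo between 0.36 (Psmd6) and 0.70 (Psmd7, the partner of Psmd14 in the lid).

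Psmd11 encodes the lid subunit Rpn6, which clamps the lid to the core particle. It stood at 42.1, 49.9, 46.5 and 56.9 TPM in treated livers, at 47.3, 12.5, 40.4 and 27.2 TPM in aged/doxo livers and at 26.7, 48.5, 40.8 and 40.7 TPM in young control livers. Treated livers were mostly above the others, and aged/doxo library 1 and young control library 2 lay within their range. The log2 fold change for treated minus aged/doxo was 0.75 ± 0.34 (SE, 95% interval 0.00 to 1.49, limma adjusted p = 0.427), and it lay between 0.22 and 0.98 over the alternatives. For treated minus young control it was 0.33 ± 0.34 (limma adjusted p = 0.734), and for aged/doxo minus young control -0.41 ± 0.34 (limma adjusted p = 1.0).

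Psmd13, the lid subunit Rpn9, was the gene most lowered in both libraries that stood apart. It stood at 29.8, 38.0, 37.6 and 43.1 TPM in treated livers, at 36.2, 4.48, 35.4 and 26.4 TPM in aged/doxo livers and at 9.15, 40.1, 31.9 and 31.8 TPM in young control livers. The level in aged/doxo library 2 was 0.137 of the mean of the other 3, and that in young control library 1 was 0.264 of the mean of its other 3. Its log2 fold change for treated minus aged/doxo, 0.83 ± 0.57 (SE), was the highest of the 41 genes, with limma adjusted p = 0.428. Exons of Psmd13 overlap those of Sirt3 on the opposite strand, which reached 81.0 TPM, so reads of these genes cannot be told apart if strand was not used.

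Psmd4, the ubiquitin receptor Rpn10, stood against this pattern within its class. It stood at 113, 104, 98.1 and 100.3 TPM in treated livers, at 103, 111, 99.8 and 114 TPM in aged/doxo livers and at 81.2, 94.0, 98.6 and 100.1 TPM in young control livers. Aged/doxo library 2 was among its highest libraries, and the groups overlapped. Its coefficient of variation over the 12 libraries, 8.83%, was the lowest of the 41 genes, and its log2 fold changes were -0.04 ± 0.16 for treated minus aged/doxo and 0.20 ± 0.16 for aged/doxo minus young control (SE), neither past the limma threshold.

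In treated against young control liver, 5 of the 41 genes had treated libraries all above young control libraries (12.2%, against 3.66% of all genes in that direction), and 0 had them all below (against 0.358%). These were Psma1, Psmb7, the lid genes Psmd12 and Psmd14, and the chaperone gene Psmd10. The separation was narrow in most of them: the lowest treated and highest young control values were 39.44 and 39.17 TPM for Psmd12, 6.69 and 6.61 TPM for Psmd10, and 30.4 and 27.9 TPM for Psmd14, the deubiquitinase Rpn11. After median-of-ratios scaling or quantile normalization, 0 of the 41 were separated in that direction, where 1.5% and 1.65% of all genes were. In aged/doxo against young control liver, 0 of 41 were separated in either direction (1.0% of all genes), and in treated against aged/doxo liver 0 of 41 (3.13% of all genes).

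The assembly chaperones of the 19S base were the least abundant class. Psmd10, known as gankyrin, stood at 7.13, 7.26, 7.65 and 6.69 TPM in treated livers, at 7.09, 1.92, 6.55 and 6.74 TPM in aged/doxo livers and at 3.99, 4.51, 6.61 and 6.23 TPM in young control livers. Treated livers were close together, and the low values were those of aged/doxo library 2 and of young control libraries 1 and 2. Psmd9 was the only one of the 3 chaperone genes lower in young control library 1 (0.323 of the mean of the other 3) than in aged/doxo library 2 (0.522) when each was set against its own group. The log2 fold change for treated minus young control was 0.39 ± 0.30 for Psmd10, 0.34 ± 0.34 for Psmd9 and 0.23 ± 0.35 for Psmd5 (SE), with limma adjusted p between 0.734 and 0.768.

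The activators fell into 2 levels. The interferon-inducible PA28 genes Psme1 and Psme2, neighbours on chromosome 14 (55578123 to 55581529 and 55587441 to 55591113, GRCm38), were about as abundant as the alpha subunits. Psme1 averaged 109 ± 8.79 TPM in treated livers, 110 ± 23.1 TPM in aged/doxo livers and 107 ± 6.80 TPM in young control livers (SD, n = 4 each). Its log2 fold change was 0.02 for aged/doxo minus young control and for treated minus young control, and the 95% interval for treated minus aged/doxo was -0.39 to 0.40. Exons of Psme1 overlap those of Emc9 on the opposite strand, which reached 49.5 TPM.

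Psme2 stood at 130, 89.7, 124 and 86.0 TPM in treated livers, at 115, 93.0, 107 and 145 TPM in aged/doxo livers and at 90.8, 109, 149.9 and 152 TPM in young control livers. Its values were spread widely within each group, and the groups overlapped. PA28 is built from both gene products, and the ratio of Psme2 to Psme1 was 0.992 ± 0.209 in treated, 1.06 ± 0.0987 in aged/doxo and 1.17 ± 0.247 in young control livers. Psme3, the nuclear PA28 gene, averaged 21.7 ± 4.44 TPM in treated, 17.1 ± 5.95 TPM in aged/doxo livers and 19.9 ± 6.52 TPM in young control livers.

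Psme4, which encodes PA200, a cap best known for the degradation of acetylated histones, had the largest coefficient of variation of the 41 genes over the 12 libraries, 40.1%. It stood at 10.3, 13.9, 16.3 and 18.8 TPM in treated livers, at 15.7, 3.64, 11.3 and 7.30 TPM in aged/doxo livers and at 5.55, 15.9, 9.04 and 12.3 TPM in young control livers. The groups overlapped throughout. The log2 fold change for treated minus aged/doxo was 0.72 ± 0.38 (SE, limma adjusted p = 0.427) and ranged from 0.02 to 0.99 over the alternatives.

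**Figure D5:**
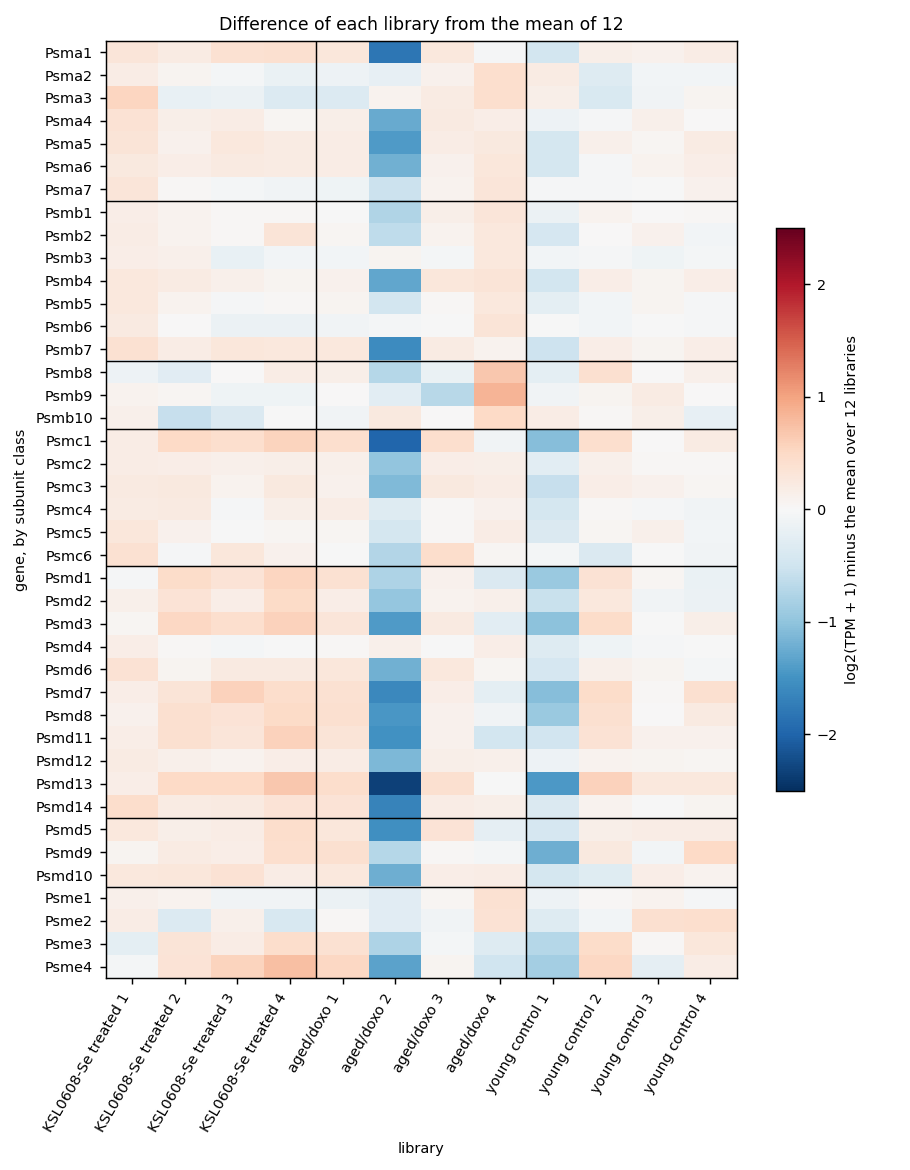
Difference of each library (columns) from the mean of the 12 libraries in log2(TPM + 1) for the 41 tested subunit genes (rows, by class from alpha ring at the top to activators at the bottom). Blue columns mark aged/doxo library 2, down to -2.33, and young control library 1, down to -1.44; Psmb10, Psmd4, Psmb3 and Psma3 are pale in aged/doxo library 2, and Psmb8 and Psmb9 are red in aged/doxo library 4.

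The subunit transcripts did not fall evenly in aged/doxo library 2. There, 21 of the 41 genes were lower than the mean of the other 3 libraries of the group by more than 1 on the log2 scale (51.2%, against 29.4% of all genes). These shares are not matched for level, and the log2(TPM + 1) scale understates drops of low genes. Of the 41, 10 were within 0.5 of that mean, and 35 were below each of the other 3. The shares of all genes for the last counts were not computed, and all genes tested were low in this library too. After Psmd13, the lowest were Psmc1 (16.1 TPM, against 80.3 ± 15.7 TPM in the other 3), Psma1 (15.9, against 65.9 ± 8.01 TPM) and Psmd14 (7.58, against 30.9 ± 2.19 TPM). At the other end, Psmb10 (34.4, against 32.4 ± 7.73 TPM), Psmb3 (171, against 168 ± 22.3 TPM) and Psmb6 (208, against 229 ± 34.8 TPM) were as high as in the rest of the group. In young control library 1, 8 of the 41 were lower by more than 1 (19.5%, against 15.7% of all genes), including Psmd13, Psmd9, Psmd7 and Psmc1. Over the 41 genes the differences in the 2 libraries ranked alike (Spearman rho 0.67, and 0.59 over all genes tested, a description over genes), and their ranks went little with transcript length (rho -0.19 and -0.31). Over all genes tested, however, log2(TPM + 1) fell most steeply with log10 length in these 2 libraries. The slopes were -1.572 in aged/doxo library 2 and -1.569 in young control library 1, against -0.759 to -1.492 in the other 10 libraries.

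Genes that work with the proteasome were counted from lists, and none of them was called in any comparison. Of 6 measured genes for assembly and inhibition of the core particle, 1 had an unadjusted limma p under 0.05 in aged/doxo against young control liver, where 1.98% of all genes did. This was the assembly chaperone gene Psmg4. In treated against aged/doxo and treated against young control liver 0 of the 6 did, where 4.77% and 3.4% of all genes did. Psmg4 averaged 23.9 ± 5.95 TPM in aged/doxo livers, against 16.8 ± 0.659 TPM in young control livers (SD, n = 4 each). Its fitted log2 fold change was 0.46 with an SE of 0.21 (limma adjusted p = 1.0). It stood at 17.3, 24.1, 22.6 and 31.7 TPM in aged/doxo livers and at 16.1, 16.6, 16.7 and 17.7 TPM in young control livers, so aged/doxo library 2 was not low for it. Pomp, the maturation factor of the core particle, averaged 173 ± 12.1 TPM in treated livers, against 136 ± 68.3 TPM in aged/doxo livers, with aged/doxo library 2 at 33.7 TPM.

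Of 16 measured proteasome-associated genes, all 16 had positive log2 fold changes for treated minus aged/doxo (median 0.53) and for treated minus young control (median 0.38), against medians of 0.30 and 0.23 for all genes, of which 81.0% and 84.0% were above 0. Their summed level was 178 TPM in aged/doxo library 2 and 236 TPM in young control library 1, against 311 to 434 TPM in the other 10 libraries. Without those 2 libraries, 13 and 15 of the 16 were above 0, with medians of 0.30 and 0.20, and with median-of-ratios scaling 11 and 10. Unadjusted limma p-values under 0.05 were reached by Zfand5 and Ube3c in treated minus aged/doxo (4.77% of all genes) and by Zfand5 again in treated minus young control (3.4% of all genes). Zfand5, a zinc-finger protein that stimulates the proteasome, stood at 15.3, 14.4, 15.4 and 14.4 TPM in treated livers, at 12.2, 7.69, 13.1 and 10.2 TPM in aged/doxo livers and at 8.36, 8.96, 9.43 and 13.6 TPM in young control livers. On the deposited scale treated livers were above all aged/doxo livers, as for 2.77% of all genes, and above all young control livers, as for 3.66%. Median-of-ratios scaling divides treated library 4 by 1.27, aged/doxo library 2 by 0.571 and young control library 1 by 0.668. Treated livers then overlap both other groups for Zfand5. Its log2 fold changes were 0.45 ± 0.20 for treated minus aged/doxo (limma adjusted p = 0.427) and 0.54 ± 0.20 for treated minus young control (SE, limma adjusted p = 0.734). Ube3c, a ubiquitin ligase that acts at the proteasome, averaged 7.88 ± 2.31 TPM in treated, 4.06 ± 2.75 TPM in aged/doxo livers and 5.37 ± 2.74 TPM in young control livers.

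Of 8 measured NRF1 pathway genes, all 8 were above 0 in treated minus aged/doxo (median 0.62) and in treated minus young control (median 0.49), with none called, where 81.0% and 84.0% of all genes were above 0 with medians of 0.30 and 0.23. Their summed level was 75.5 TPM in aged/doxo library 2 and 86.6 TPM in young control library 1, against 163 to 318 TPM in the other 10 libraries. Without those 2 libraries, 7 of the 8 were above 0 in each comparison, with medians of 0.32 and 0.20. With the length covariate 4 and 6 were, with medians of 0.03 and 0.06. Nfe2l1 itself, chosen after its values were seen, averaged 30.1 ± 5.56 TPM in treated, 19.4 ± 9.81 TPM in aged/doxo livers and 23.6 ± 11.99 TPM in young control livers (log2 fold change for treated minus aged/doxo 0.75 ± 0.43 SE, limma adjusted p = 0.427). The related stress regulator gene Nfe2l2 (NRF2) stood at 27.2, 31.7, 32.2 and 25.0 TPM in treated livers, at 27.7, 12.9, 24.6 and 17.6 TPM in aged/doxo livers and at 8.39, 17.4, 12.9 and 21.7 TPM in young control livers. Treated livers were above all young control livers, as for 3.66% of all genes, and overlapped the aged/doxo livers. The log2 fold change for treated minus young control was 0.97 ± 0.29 (SE, limma adjusted p = 0.734). Ddi2, the protease that activates NRF1, averaged 25.6 ± 7.59 TPM in treated, 14.1 ± 7.29 TPM in aged/doxo livers and 14.9 ± 8.64 TPM in young control livers.

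Of 15 measured MHC class I and interferon gamma genes, 0 had an unadjusted limma p under 0.05 in any comparison (1.98%, 4.77% and 3.4% of all genes in the order below). Their median log2 fold changes were -0.01 for aged/doxo minus young control, 0.24 for treated minus aged/doxo and 0.21 for treated minus young control. Median-of-ratios scaling brought the last 2 to -0.094 and -0.013. Interferon gamma itself (Ifng), the inducer of Psmb8, Psmb9 and Psmb10, was at most 0.53 TPM in any library.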

How the data were processed

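The authors deposited TPM values per gene for 12 mouse liver libraries. Reads were handled with fastp, HISAT and RSEM, per the submitters' processing notes, and no versions are named. The sources used here do not give the genome build, annotation release or strand setting. Gene lengths are the deposited length column of the same table. Genome positions were looked up by gene identifier in GENCODE M21 (GRCm38). TPM keeps no read depth, so depth is unknown and counting intervals could not be given. No 2 libraries held identical values.

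After adding a pseudocount of 1, TPM was put on the log2 scale for the 10883 genes that averaged at least 1 TPM. This scale understates fold changes of low genes. The test was limma 3.58.1 (R 4.3.3) over the 12 libraries, with no covariate beside group and with an intensity trend, two-sided, with Benjamini-Hochberg adjustment over all genes and a threshold of 0.05. The fit was tested on simulated data. All subunit genes could be named, and from other lists the genes past the threshold or the 2 of smallest p in a comparison. The members and lists were chosen with earlier results of these data known. Alternatives covered the pseudocount (0.1), the filter (none, or a mean of at least 5 TPM), scaling, a replicate block, a length covariate, the samples fitted, and each library left out. Exon overlaps were read from GENCODE M21: 12 of the 43 genes overlap another gene, which reached 1 TPM in some library for 6 of them. Figures were drawn with matplotlib 3.10.9.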

Additional observations from a re-analysis of the deposited data

Results flagged for a closer look

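In each group of 4 libraries, the gap between the most extreme library and its nearest neighbour was compared with the group's range for all 41 genes and 3 groups, 123 groups in all. Chance flags about 1 in 20 such groups, and 13 were found. The 41 genes share the same libraries and are not independent, so the 13 are not separate events to set against that rate.

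Aged/doxo library 2 was isolated below its group for 9 genes. They were Psma4 (42.4 TPM), Psma5 (15.1 TPM), Psmb7 (39.8 TPM), Psmc2 (23.9 TPM), Psmc3 (38.1 TPM), Psmd2 (27.9 TPM), Psmd10 (1.92 TPM), Psmd12 (16.3 TPM) and Psmd14 (7.58 TPM). Young control library 1 was isolated below its group for Psma1 (41.8 TPM) and Psmd5 (9.38 TPM). Young control library 4 was isolated above its group for Psma7 (153 TPM), and aged/doxo library 4 for Psmb6 (269 TPM).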

How the results depend on the processing

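No subunit gene was called by limma under any of the 21 alternatives in any of the 3 comparisons. The smallest adjusted p of a subunit gene over the alternatives was 0.663 for aged/doxo minus young control, 0.216 for treated minus aged/doxo and 0.507 for treated minus young control. The median log2 fold change over the subunit genes lay between -0.22 and 0.18, between 0.02 and 0.44, and between 0.10 and 0.29 for those comparisons in that order when each library was left out in turn. With median-of-ratios scaling it was 0.012, -0.043 and -0.035, and with the length covariate 0.01, 0.05 and 0.05. Of 861 values of single genes per comparison, 95, 65 and 58 had the other sign. The 861 include settings that cannot change a log2 fold change. These are both filters, the replicate block, the fit of the 2 groups alone and leaving out a library of the group not compared. The 861 are therefore not a measure of how stable the signs were.

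Counts over all genes were small and moved. For aged/doxo minus young control (1 gene called), a pseudocount of 0.1, quantile normalization and the length covariate each gave 2, median-of-ratios scaling gave 3, and no filter, the replicate block and a fit of the 2 groups alone each gave 0. Leaving out a library gave 0 to 2. For treated minus aged/doxo (1 called), no filter, both scalings, the replicate block, the length covariate and leaving out both libraries that stood apart each gave 0, the 2 groups alone gave 2, and leaving out a library gave 0 to 1. For treated minus young control (3 called), no filter, the replicate block and the 2 groups alone each gave 1, and leaving out a library gave 1 to 5. The cause of these shifts was not tested.

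Replicate numbers did not pair the libraries: the deviations of 12 same-numbered pairs correlated between -0.58 and 0.39, 2 of them above 0.1, and 0 of 12 libraries correlated best with its own number. Under the replicate block, 0 subunit genes were called. TPM without depth, 4 libraries a group and the 2 libraries that stood apart limit what these comparisons can show.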
